A study of Homo sapiens with 18 samples.

Results

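The amino acid transporter genes described here are the 40 gene symbols, of 26475 in the count table, that belong to 6 solute carrier families: SLC1, SLC3, SLC7, SLC36, SLC38 and SLC43. They were picked by symbol, and the families were chosen with earlier results of these data known. RNA-seq was performed in the human uveal melanoma (UM) cell lines Mel92.1 and MP41, each kept for 48 h at 1 μM with UNC0642 or A366, or with DMSO as the vehicle, which gave 6 groups of 3 biological replicates and 18 libraries. Both compounds inhibit EHMT2 (also called G9a), a histone methyltransferase that methylates lysine 9 of histone H3, and its relative EHMT1. No group carried a genetic change made for the study, each line comes from 1 tumour, and the comparisons of both inhibitors in a line share the same DMSO libraries.

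The libraries labelled A366 replicates 2 and 3 of either line did not match their labels: of genes that only 1 of the lines expressed with DMSO, these 4 libraries held 96.5% to 112% of the level of the other line and at most 0.0677% of that of the labelled line. They were therefore placed in the other line. For the transporter genes, counts and leading genes with A366 are also given without these 4 libraries and as labelled. Total counts ran between 23601160 and 62941453 a library (median 41955691), with 3.31% to 32.8% on 4 ribosomal RNA genes. Mel92.1 UNC0642 replicate 1 had the lowest total and the highest ribosomal share, and 867 of the 13504 genes (6.42%) with at least 10 counts in each of the other 8 Mel92.1 libraries were at 0 in it, against at most 8 in any other library. As to cell identity, the summed CPM (read counts per 1000000 in the library, scaled by TMM factors) of 7 melanocyte genes ran from 21012 to 24415 in Mel92.1 and from 14999 to 16193 in MP41. The melanocyte gene DCT ran from 1.16 to 10.6 CPM in Mel92.1 and from 222 to 524 CPM in MP41. The sum of 11 genes of fibroblasts, leukocytes, endothelium and epithelium ran from 43.5 to 53.7 and from 151 to 197, most of it CD68. COL1A1, a fibroblast gene, ran from 8.14 to 22.2 CPM in Mel92.1 and from 7.25 to 15.3 CPM in MP41. None of the rest exceeded 2.88 CPM, the highest value of VWF in MP41. CD3E and KRT5 were at 0 in all Mel92.1 libraries and at most 0.0431 CPM in MP41.

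Amino acids cross membranes through carriers of several designs. The SLC3 proteins are heavy chains with no transport channel of their own that bring SLC7 light chains to the cell surface: SLC3A2 (CD98, also 4F2hc) pairs with SLC7A5 (LAT1), which takes up leucine and other large neutral amino acids in exchange for glutamine, and with SLC7A11 (xCT), which takes up cystine, the source of cysteine for glutathione, in exchange for glutamate. SLC1A5 (ASCT2) and the sodium-coupled SLC38A1 and SLC38A2 carry glutamine, and several of these genes are known targets of ATF4, the transcription factor made when amino acids are scarce or when cells are under stress.

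With DMSO, 23 of the 40 genes reached a mean of 1 CPM in Mel92.1 and 23 in MP41, 21 of them in both lines. A further 14 stayed under a mean of 1 CPM in every group, among them SLC1A6, SLC38A11 and SLC7A13, which had no count in any library. The others under that level were SLC1A2, SLC1A7, SLC36A2, SLC36A3, SLC38A4, SLC38A5, SLC38A8, SLC7A3, SLC7A9, SLC7A10 and SLC7A14. Per kilobase of the longest annotated transcript, SLC3A2 had the highest level of the 40 genes in Mel92.1, with 315 ± 24.1 CPM per kb (SD, n = 3), followed by SLC7A8 (121 ± 1.86), SLC7A5 (116 ± 2.72) and SLC1A5 (106 ± 7.54). SLC7A8 (LAT2) is another light chain for neutral amino acids. In MP41 the order was SLC3A2 (148 ± 6.77 CPM per kb), SLC7A5 (131 ± 4.44), SLC7A8 (67.3 ± 5.77) and SLC38A2 (47.8 ± 2.29). Neighbours in these orders did not overlap over the 3 libraries, although SLC7A8, SLC7A5 and SLC1A5 lay close together in Mel92.1. No test was run between genes. The cystine carrier SLC7A11 stood far lower, at 2.49 ± 0.463 and 3.77 ± 0.144 CPM per kb.

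**Figure D1:**
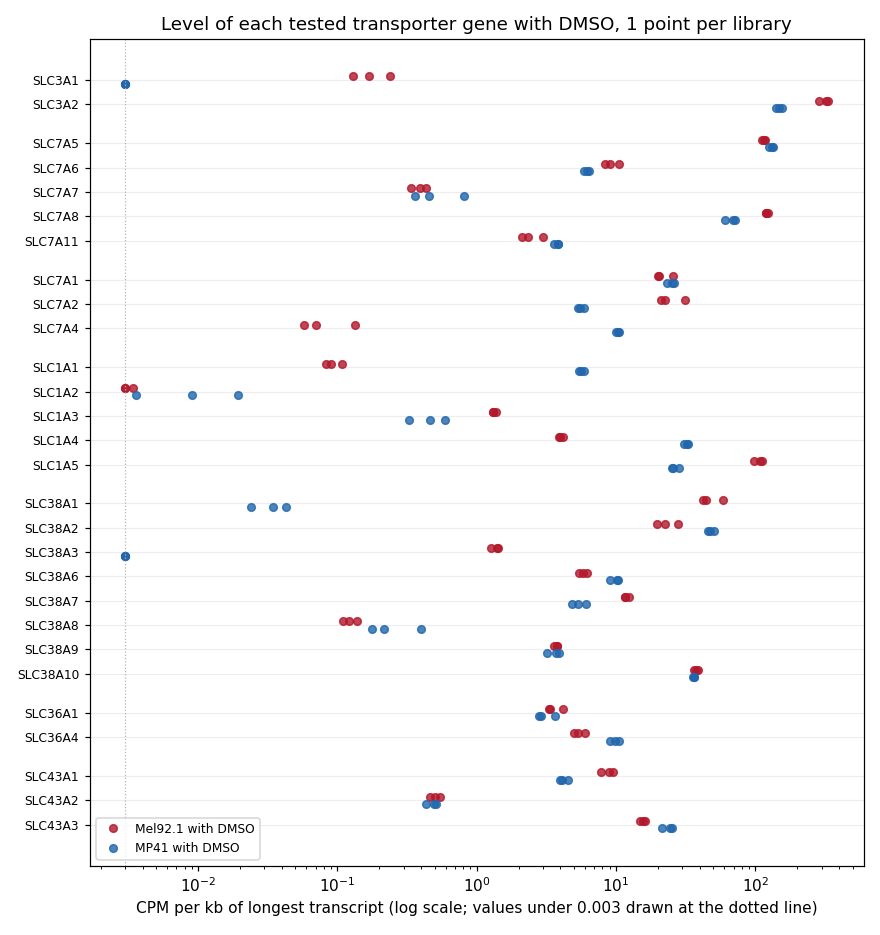
Level with DMSO of the 28 transporter genes tested, as CPM per kb of the longest transcript on a log axis, with 1 point per library (red Mel92.1, blue MP41, n = 3 each). SLC3A2 lies farthest right in both lines, while SLC38A1, SLC38A3, SLC7A4 and SLC1A1 lie far apart between the lines.

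Most transporters were read in both lines before any inhibitor was added, at levels that differed. In 1 fit of all 18 libraries, 21 of the 28 transporter genes tested differed between the lines with DMSO, 11 higher in Mel92.1 and 10 lower, where 69.4% of all genes tested differed (34.5% higher and 34.8% lower), so the share was near that of all genes. SLC38A1 (SNAT1), a glutamine carrier, was at 470.4, 358 and 340.0 CPM in Mel92.1 and at 0.195, 0.279 and 0.348 CPM in MP41. The difference was 10.46 ± 0.21 on the log2 scale (SE, adjusted p = 9.17e-17), and the MP41 libraries were all under 1 CPM. SLC38A2 (SNAT2), its close relative, stood the other way, at 137, 111 and 97.2 CPM in Mel92.1 and 224, 232 and 246 CPM in MP41 (log2 difference -1.02 ± 0.14). SLC1A5 was 4.01-fold higher in Mel92.1 (log2 2.01 ± 0.071), with 281, 313 and 323 CPM against 81.4, 72.7 and 74.2 CPM. Its relative SLC1A4 (ASCT1), a carrier of alanine, serine and cysteine, was 7.97-fold lower, with 24.1, 23.0 and 22.7 CPM against 189.9, 179.7 and 187 CPM.

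SLC1A1 and SLC7A4 were read mainly in MP41. SLC1A1 (EAAT3), which carries glutamate and cysteine, was at 0.307, 0.399 and 0.335 CPM in Mel92.1 and 20.9, 20.2 and 22.0 CPM in MP41, a log2 difference of -5.92 ± 0.31. SLC7A4, a member of the cationic branch without an established substrate, was at 0.164, 0.133 and 0.309 and 23.0, 24.3 and 23.9 CPM (log2 -6.87 ± 0.28). In the opposite direction, SLC7A2 (CAT2), an arginine and lysine carrier, was at 239, 172 and 162 CPM in Mel92.1 and 40.6, 45.0 and 42.4 CPM in MP41 (log2 2.16 ± 0.14), whereas SLC7A1 (CAT1), which carries the same amino acids, had 188, 150.1 and 148 and 186, 170.2 and 194 CPM and an adjusted p of 0.240. SLC38A3 (SNAT3) had 3.77, 4.20 and 4.22 CPM in Mel92.1 and no count with DMSO in MP41. Against a floor of 3 counts per library, this is at least 61.0-fold higher in Mel92.1. The heavy chain SLC3A1 (rBAT) also had no count with DMSO in MP41 and 0.716, 0.505 and 0.386 CPM in Mel92.1, at least 8.05-fold higher. SLC1A2 (EAAT2) passed the threshold too, at no more than 0.232 CPM in any DMSO library, and lost it in 13 of 26 alternatives.

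The heavy chain SLC3A2 was 2.13-fold higher in Mel92.1 than in MP41 (log2 1.09 ± 0.086), while its partners split. SLC7A8 was higher in Mel92.1 (log2 0.85 ± 0.090), SLC7A11 was lower (log2 -0.59 ± 0.15), and SLC7A5 was lower by a small margin (log2 -0.18 ± 0.056). Of the genes not yet named for this comparison, SLC1A3, SLC7A6, SLC38A7 and SLC43A1 were higher in Mel92.1 (log2 0.59 to 1.53), and SLC36A4, SLC38A6 and SLC43A3 were lower (-0.85 to -0.60). SLC7A7, SLC36A1, SLC38A8, SLC38A9, SLC38A10 and SLC43A2 did not pass the threshold. Summed over the 40 genes, transporter RNA came to 3316 to 3503 CPM in Mel92.1 and to 2356 to 2475 CPM in MP41 with DMSO.

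In Mel92.1, no transporter gene passed the threshold with either inhibitor by edgeR, and the cystine carrier SLC7A11 came nearest with UNC0642. In bulk RNA, fewer cells that express a gene and less RNA per cell cannot be told apart. SLC7A11 was at 29.1, 22.5 and 20.5 CPM with DMSO, 17.1, 10.9 and 11.9 CPM with UNC0642 and 15.3, 16.2 and 13.9 CPM with A366. All 3 libraries of either inhibitor were below all 3 DMSO libraries. The log2 fold change was -0.87 ± 0.18 with UNC0642 (SE, adjusted p = 0.0905) and -0.67 ± 0.18 with A366 (adjusted p = 0.384). Without Mel92.1 UNC0642 replicate 1, the library with many genes at 0, the UNC0642 value was -1.08 and passed (adjusted p = 0.0122), and DESeq2 and limma voom called it in all libraries (adjusted p = 0.00117 and 0.000874). SLC7A11 is among the genes that the study itself picked from these libraries of this line, so its direction here is not independent evidence. Its antisense neighbour SLC7A11-AS1 had at most 10 counts in any library.

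The heavy chain SLC3A2 was at 641, 715 and 745 CPM with DMSO, 657, 645 and 606 CPM with UNC0642 and 634, 605 and 685 CPM with A366. These groups overlapped, and the log2 values were -0.14 ± 0.075 and -0.12 ± 0.075 (adjusted p = 0.567 and 1.000). With A366, limma voom called both SLC3A2 (log2 -0.18, adjusted p = 0.00703) and SLC7A11 (-0.55, adjusted p = 0.000387). With A366 the lowest adjusted p of the transporter genes belonged to SLC7A5 (0.0653), which was at 534, 511 and 529 CPM with DMSO and 418, 441 and 412 CPM with A366, without overlap (log2 -0.31 ± 0.053).

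Of 25 transporter genes tested in Mel92.1, edgeR called 0 with UNC0642, where 0.688% of all genes passed, and 0 with A366, where 0.213% passed. At an unadjusted p under 0.05 there were 6 with UNC0642 and 4 with A366. The share of all genes at that unadjusted level was not computed, so these counts cannot show an excess. DESeq2 called 1 with each inhibitor, where it called 3.03% of all genes with UNC0642 and 1.22% with A366. With sample quality weights, limma voom called 2 and 8, where it called 2.84% and 21.2% of all genes. With A366, the DESeq2 call was SLC7A5 (adjusted p = 7.72e-08). Without the 4 libraries that did not match their labels, 1 A366 library remained in the line, 0 transporter genes passed, and the log2 values were -0.66 for SLC7A11, -0.15 for SLC3A2 and -0.33 for SLC7A5. As labelled, 0 passed as well, and the values were 1.05 for SLC7A11 (adjusted p = 0.218), -0.30 for SLC3A2 and 0.25 for SLC7A5, so that SLC7A11 and SLC7A5 turned in direction.

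**Figure D2:**
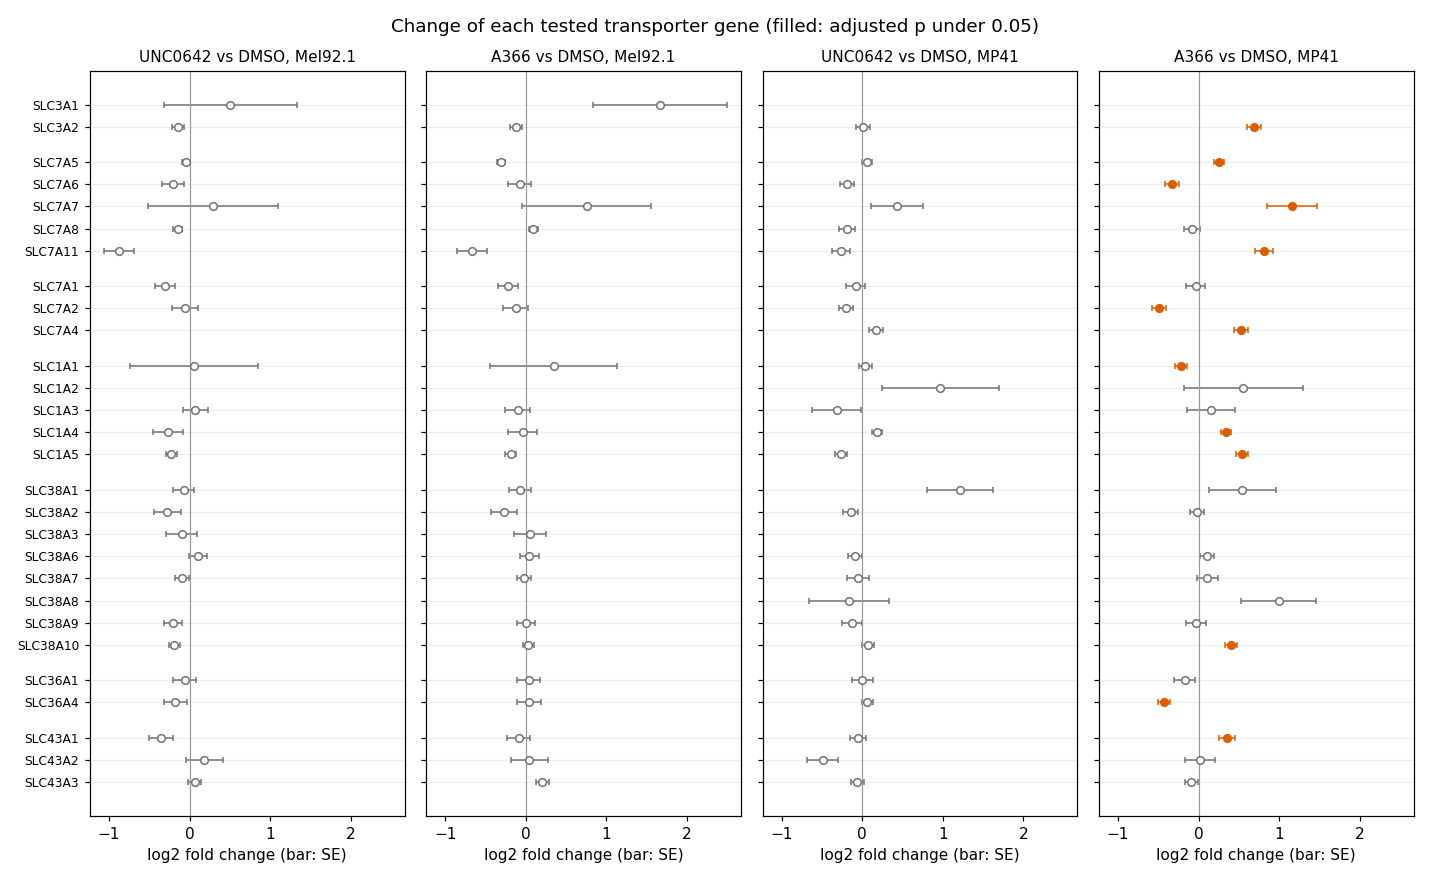
Log2 fold change with its SE of each tested transporter gene, for UNC0642 and A366 against DMSO in either line (n = 3 libraries per group). Filled orange points passed an adjusted p of 0.05, which 13 genes did with A366 in MP41 and none did in the other 3 comparisons.

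With UNC0642 in MP41, edgeR called 0 of 26 transporter genes, where 0.241% of all genes passed. At an unadjusted p under 0.05 there were 6, with no share of all genes computed at that level. DESeq2 called 1 (1.20% of all genes), and limma voom called 0 (1.03%). SLC7A11 was at 37.2, 34.7 and 37.0 CPM with DMSO and 29.3, 30.1 and 31.8 CPM with UNC0642, so that the groups did not overlap, and its log2 value was -0.26 ± 0.11 (adjusted p = 0.528). SLC3A2 was at 328, 344 and 314 and 328, 339 and 327 CPM, with a log2 value of 0.0085 ± 0.086 (adjusted p = 0.990, 95% interval -0.18 to 0.19). SLC1A5 had the lowest adjusted p of the transporter genes, 0.247, with 81.4, 72.7 and 74.2 CPM with DMSO and 63.9, 61.0 and 66.0 CPM with UNC0642 (log2 -0.26 ± 0.072). It was also the 1 gene that DESeq2 called (adjusted p = 0.0456). The largest value was that of SLC38A1 (log2 1.21 ± 0.41, adjusted p = 0.377), at no more than 0.734 CPM in a library.

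With A366 in MP41 the cystine carrier SLC7A11, its heavy chain SLC3A2 and the glutamine carrier SLC1A5 rose together. Of the 26 transporter genes tested 13 passed, 9 higher and 4 lower, in a comparison where 46.0% of all genes passed (22.5% higher and 23.5% lower). The share of transporter genes that passed was thus near that of all genes. The median log2 value was 0.13 for the tested transporter genes and 0.020 for all genes tested, and the summed CPM of the 40 genes ran from 2886 to 2915, against 2356 to 2475 with DMSO. The A366 libraries of MP41 also had more counts (46220017 to 54800825 a library, against 39230070 to 41585682 with DMSO) and more ribosomal RNA (at least 5.93%, against at most 5.10%), and the part of these in the result was not tested.

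Among heavy and light chains, SLC3A2 was at 328, 344 and 314 CPM with DMSO and 551, 456 and 607 CPM with A366. Every A366 library lay above every DMSO library, and the change was 1.61-fold (log2 0.69 ± 0.086, adjusted p = 0.000293). SLC7A11 was at 37.2, 34.7 and 37.0 CPM with DMSO and 61.4, 77.8 and 54.5 CPM with A366. The groups did not overlap, and the change was 1.75-fold (log2 0.81 ± 0.11, adjusted p = 0.000450). SLC7A7 (y+LAT1), a partner of SLC3A2 that exports arginine and lysine, had the largest fitted change but low levels, 2.47, 1.09 and 1.37 CPM with DMSO and 3.56, 3.84 and 3.83 CPM with A366 (log2 1.16 ± 0.32, adjusted p = 0.0105). SLC7A5 rose by a smaller amount, from 609.5, 571 and 601 CPM to 712, 732 and 712 CPM (log2 0.25 ± 0.062, adjusted p = 0.00617). SLC7A6 (y+LAT2) fell (log2 -0.33 ± 0.089), and SLC7A8 did not pass (-0.081 ± 0.10, 95% interval -0.30 to 0.14), so the light chains of the 1 heavy chain did not all move one way.

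**Figure D3:**
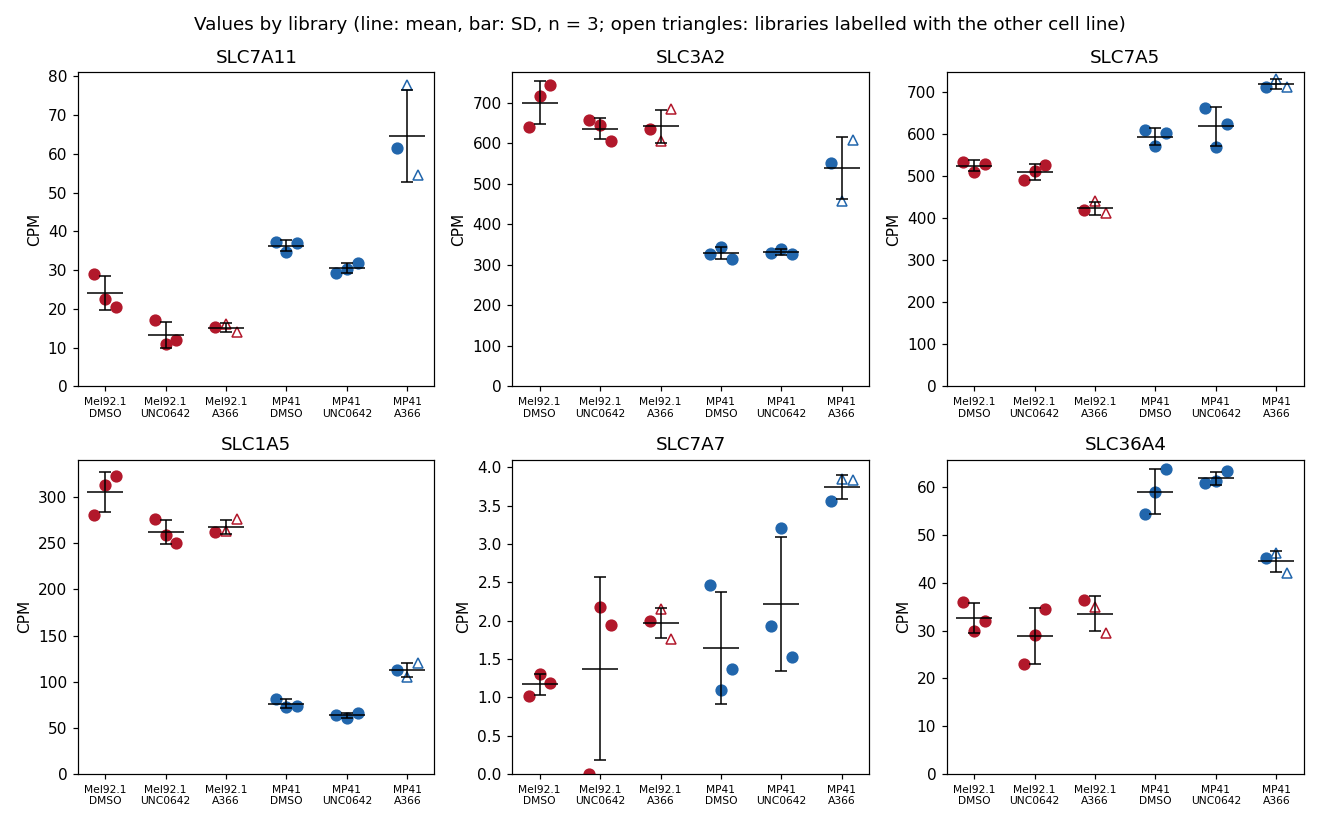
CPM in each library of 6 transporter genes, by line and treatment, with the mean and SD of 3 libraries. Open triangles are the A366 libraries labelled with the other line. In MP41 the A366 libraries of SLC7A11, SLC3A2, SLC7A5, SLC1A5 and SLC7A7 lie above the DMSO libraries, and those of SLC36A4 below them.

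In the SLC1 family, SLC1A5 rose from 81.4, 72.7 and 74.2 CPM with DMSO to 113, 106 and 119.9 CPM with A366 (log2 0.54 ± 0.072, adjusted p = 0.000382). SLC1A4 rose from 189.9, 179.7 and 187 CPM to 235, 248 and 232 CPM (log2 0.34 ± 0.061, adjusted p = 0.00131). For both genes all A366 libraries were above all DMSO libraries. SLC1A1, the glutamate and cysteine carrier read mainly in this line, fell slightly (log2 -0.22 ± 0.076, adjusted p = 0.0313).

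In the cationic branch SLC7A4 and SLC7A2 moved in opposite directions. SLC7A4 was at 23.0, 24.3 and 23.9 CPM with DMSO and 35.6, 30.4 and 38.4 CPM with A366 (log2 0.53 ± 0.085, adjusted p = 0.000777). SLC7A2 was at 40.6, 45.0 and 42.4 and 30.4, 34.7 and 27.2 CPM (log2 -0.49 ± 0.090, adjusted p = 0.00130). The groups did not overlap for either gene, and SLC7A1 had a log2 value of -0.037 ± 0.11 (adjusted p = 0.814).

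Of the remaining families, SLC38A10, a poorly understood member of the SLC38 family, rose from 158, 154 and 157 CPM to 209.5, 186 and 231 CPM (log2 0.40 ± 0.074, adjusted p = 0.00151). SLC43A1 (LAT3), a facilitator for large neutral amino acids, rose from 11.7, 10.2 and 10.6 CPM to 13.8, 13.1 and 15.4 CPM (log2 0.36 ± 0.10, adjusted p = 0.0141). SLC36A4 (PAT4), of the proton-coupled family, fell from 54.3, 58.9 and 63.7 CPM to 45.2, 46.3 and 42.1 CPM (log2 -0.43 ± 0.074, adjusted p = 0.00101). The glutamine carrier SLC38A2 did not pass. It was at 224, 232 and 246 CPM with DMSO and 231, 267 and 203 CPM with A366 (log2 -0.022 ± 0.089, 95% interval -0.22 to 0.17). The other tested genes, SLC1A2, SLC1A3, SLC36A1, SLC38A1, SLC38A6, SLC38A7, SLC38A8, SLC38A9, SLC43A2 and SLC43A3, did not pass, with log2 values between -0.17 and 0.99.

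The rise of SLC3A2 and SLC1A5 held its side of the threshold in all 18 alternatives that could change their fit. These were 9 settings and 9 fits without 1 MP41 library, with log2 values of 0.34 to 0.92 and of 0.25 to 1.54. The labelled grouping among them cannot speak for the rise, since its A366 group holds Mel92.1 libraries. With DMSO, SLC3A2 was 2.13-fold and SLC1A5 4.01-fold higher in Mel92.1 than in MP41. Without the 4 libraries that did not match their labels, 11 transporter genes passed (35.7% of all genes), 10 of them among the 13, with 1 A366 library left, whose spread was taken to be that of the other groups. SLC7A11 was then at 0.72 (adjusted p = 5.04e-05) and SLC3A2 at 0.71 (6.78e-06), while SLC7A7, SLC43A1 and SLC1A1 no longer passed (adjusted p = 0.0876, 0.114 and 0.141). As labelled, with libraries of both lines in the A366 group, 7 passed (32.8% of all genes), 4 of them among the 13, and SLC7A11 had a log2 value of -0.26 (adjusted p = 0.691). With a fitted correction for transcript GC content and length, 8 passed (35.5% of all genes), 7 higher and 1 lower, 6 of them among the 13 and SLC38A2 and SLC43A3 besides. This correction moved SLC7A11 up to 1.27 and SLC3A2 down to 0.34, both still past the threshold, and ended the calls of SLC7A4, SLC7A2, SLC36A4, SLC43A1, SLC7A5, SLC7A6 and SLC1A1 (adjusted p = 0.0571, 0.111, 0.454, 0.644, 0.0687, 0.0801 and 0.0852). Reads of SLC7A5 may be shared with its pseudogenes SLC7A5P1 and SLC7A5P2, which had at most 754 and 85 counts, and the use of strand in counting is not given in the sources used here, which bears on SLC7A4, since it overlaps P2RX6 on the other strand.

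**Figure D4:**
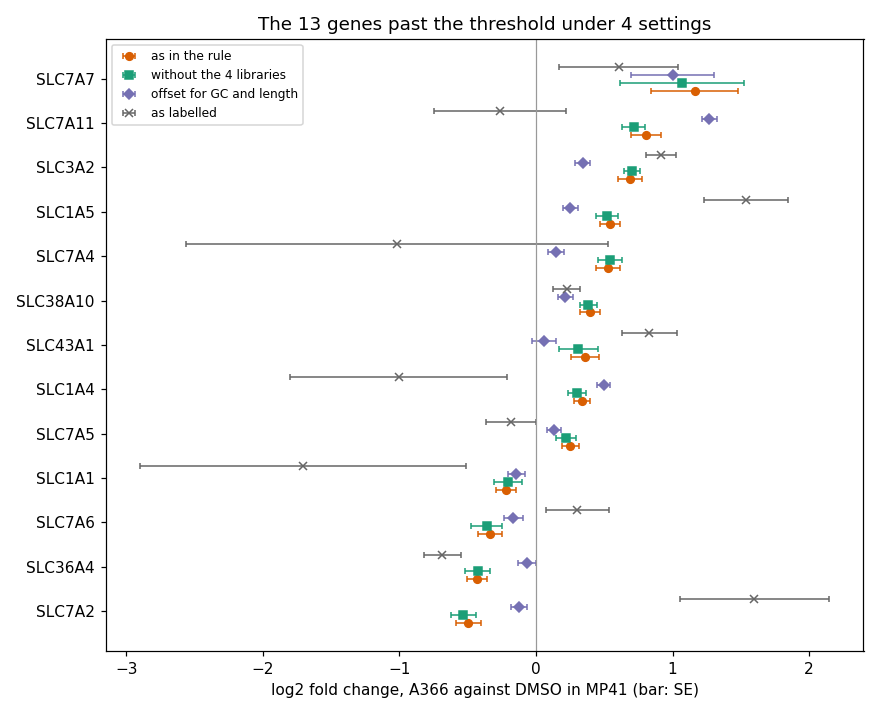
Log2 fold change with its SE for A366 against DMSO in MP41, for the 13 transporter genes that passed, under the placement used here, without the 4 libraries that did not match their labels, with the correction for GC and length, and as labelled. SLC3A2, SLC1A5, SLC7A7, SLC38A10 and SLC43A1 are among the genes right of 0 under all 4 settings, and SLC7A11, SLC7A4 and SLC1A4 lie left of 0 as labelled. As labelled, the A366 group holds libraries of both lines, so differences between the lines enter those values.

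The promoters of these genes were also searched for short sequence elements, and a link between these and the changes in RNA was not tested. RefSeq (GRCh38.p14) gave a window of 250 bases before to 50 bases after the start for 31 of the 40 genes. SLC7A11 was not among the 31, so its promoter was not searched. Searched on both strands, TGATGNAAN, the composite element of C/EBP and ATF proteins, was present in 4 of the 31 (SLC1A3, SLC38A1, SLC3A2 and SLC7A1) and in 3.67% of 27305 promoters of the same length. TGACNNNGC, the antioxidant response element bound by NRF2 with small MAF proteins, was present in 5 of the 31 (SLC3A2, SLC7A1, SLC7A5, SLC7A6 and SLC7A7) and in 13.6% of all promoters. Of the genes with a match, SLC3A2, SLC7A5 and SLC7A7 rose with A366 in MP41. SLC7A6 fell, and SLC7A1, SLC1A3 and SLC38A1 did not pass. The windows of the heavy chain that rose and of 2 carriers that rose with it are shown. They read 5′ to 3′ on the strand of the gene, with matches in capitals. SLC3A2 (chr11:62881449-62881748, plus strand) holds the antioxidant element from 37 bases before the start and the C/EBP and ATF element, on the other strand, from 36 bases after it. SLC7A5 (chr16:87869458-87869757, minus strand) holds 1 antioxidant element that begins 2 bases before the start, and SLC1A5 (chr19:46788545-46788844, minus strand) has neither run of letters in its window.
SLC3A2: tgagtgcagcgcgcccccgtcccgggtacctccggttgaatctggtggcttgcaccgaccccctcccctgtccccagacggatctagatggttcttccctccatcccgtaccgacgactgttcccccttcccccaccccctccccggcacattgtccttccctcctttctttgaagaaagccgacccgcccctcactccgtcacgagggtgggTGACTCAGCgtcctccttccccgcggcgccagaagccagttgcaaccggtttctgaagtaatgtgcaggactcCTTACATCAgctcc
SLC7A5: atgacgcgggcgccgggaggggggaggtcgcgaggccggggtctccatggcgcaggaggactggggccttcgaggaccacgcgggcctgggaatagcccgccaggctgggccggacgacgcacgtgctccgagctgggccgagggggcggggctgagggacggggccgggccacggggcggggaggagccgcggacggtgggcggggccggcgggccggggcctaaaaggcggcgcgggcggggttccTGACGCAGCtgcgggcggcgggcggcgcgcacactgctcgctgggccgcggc
SLC1A5: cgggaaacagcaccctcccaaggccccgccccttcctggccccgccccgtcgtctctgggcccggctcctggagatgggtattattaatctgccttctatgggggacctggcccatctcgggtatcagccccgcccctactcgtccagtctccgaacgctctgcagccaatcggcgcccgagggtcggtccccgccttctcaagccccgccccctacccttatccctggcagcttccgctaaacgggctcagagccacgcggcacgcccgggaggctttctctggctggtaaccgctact
In GENCODE release 29 (GRCh38) the genes span chromosome 11, 62856102 to 62888875 for SLC3A2, chromosome 16, 87830023 to 87869488 for SLC7A5, chromosome 19, 46774883 to 46788594 for SLC1A5 and chromosome 4, 138164097 to 138242349 for SLC7A11, and the start used for the SLC3A2 window lies inside that span.

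Whether the lines responded differently was tested directly, as the change in Mel92.1 minus the change in MP41. For A366, 5 of 28 transporter genes differed, all with the lower change in Mel92.1, where 13.8% of all genes differed (5.13% with the higher and 8.67% with the lower change in Mel92.1). The largest difference was that of SLC7A11, -1.50 ± 0.22 on the log2 scale (SE, adjusted p = 0.000849), with 24.0 ± 4.46 CPM (SD, n = 3) with DMSO and 15.1 ± 1.14 CPM with A366 in Mel92.1, and 36.3 ± 1.38 and 64.6 ± 11.9 CPM in MP41. SLC3A2 differed by -0.84 ± 0.12 (adjusted p = 0.000714), SLC1A5 by -0.76 ± 0.096 (0.000267) and SLC7A5 by -0.58 ± 0.079 (0.000455). SLC38A10 differed by -0.40 ± 0.099 (0.0185). Without the 4 libraries that did not match their labels, SLC7A11, SLC3A2, SLC1A5 and SLC7A5 passed (adjusted p = 0.0459, 0.0157, 0.0361 and 0.0452) and SLC38A10 did not (0.0927). Those 4 compare with 1.24% of all genes. Under the correction for GC and length 3 genes passed (0.671% of all genes), of which SLC7A11 alone was among the 5 (-2.01, adjusted p = 0.000304), and as labelled 17 passed (49.4% of all genes), 2 of them among the 5.

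For UNC0642, edgeR called 0 of the 28, where 0.601% of all genes differed. At an unadjusted p under 0.05 there were 6, with no share of all genes computed at that level. DESeq2 and limma voom each called 1, where they called 1.99% and 1.54% of all genes. The difference of SLC7A11 was -0.63 ± 0.22 (adjusted p = 0.332, 95% interval -1.09 to -0.16), and that of SLC3A2 -0.15 ± 0.12 (-0.41 to 0.10).

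The inhibitors were compared with each other at the same dose and time in 2 pairs, 1 in each line. In MP41, 11 of the 26 transporter genes differed between A366 and UNC0642, 8 higher and 3 lower with A366, where 43.1% of all genes differed (21.1% higher and 22.0% lower). SLC7A11 was 2.09-fold higher with A366 (log2 1.07 ± 0.11, adjusted p = 9.00e-05), SLC1A5 was 1.75-fold higher (log2 0.81 ± 0.072, adjusted p = 3.27e-05) and SLC3A2 was 1.60-fold higher (log2 0.68 ± 0.086, adjusted p = 0.000228). SLC43A2 (LAT4), a facilitator of the SLC43 family, was higher by 0.51 ± 0.19 at an adjusted p of 0.0497, a call that was lost in 15 of the 18 alternatives that could change it. SLC36A4 was lower by 1.41-fold (log2 -0.49 ± 0.074, adjusted p = 0.000515). Without the 4 libraries that did not match their labels 7 genes passed (34.4% of all genes), all among the 11, and as labelled 9 passed (31.0%), 5 of them among the 11.

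In Mel92.1, edgeR called 0 of the 25 transporter genes between the inhibitors, where 0.165% of all genes passed. At an unadjusted p under 0.05 there were 3, with no share of all genes computed at that level. DESeq2 and limma voom called 2 each (1.63% and 1.47% of all genes). The difference of SLC7A11 was 0.21 ± 0.18 with a 95% interval of -0.21 to 0.62, and that of SLC3A2 was 0.018 ± 0.075 with an interval of -0.15 to 0.19. No gene of the table passed without the 4 libraries or as labelled, where SLC7A11 had values of 0.21 and 1.91 and SLC3A2 of -0.0061 and -0.15.

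Other genes of amino acid handling were read from 5 lists, which were chosen with earlier results of these data known. Their shares beside all genes are therefore not independent evidence. The list around ATF4 (ATF4, related transcription factors, their targets, and the kinases EIF2AK3 and EIF2AK4) held 24 genes. With A366 in MP41, 21 of the 22 tested passed, 18 higher and 3 lower, where 46.0% of all genes did. The 3 lower were VLDLR, EIF2AK3 and EIF2AK4. The median log2 value of the list was 0.74 against 0.020 for all genes. CHAC1, an enzyme that breaks down glutathione, was at 14.3, 16.2 and 16.4 CPM (lowest, median and highest) with DMSO and 54.6, 61.4 and 67.2 CPM with A366 (log2 1.94 ± 0.092, adjusted p = 4.66e-07). ASNS, asparagine synthetase, was at 55.9, 57.0 and 61.9 and 132, 135 and 140.3 CPM (log2 1.19 ± 0.072). The stress factor ATF3 (log2 1.80 ± 0.096) and the enzyme PCK2 (1.21 ± 0.083) rose as well. Leaving out the 4 libraries that did not match their labels left 1 A366 library in the line, so no count of that fit is given for this list. As labelled 7 of 23 passed, where 32.8% of all genes did. Under the correction for GC and length 18 of 22 passed, 17 higher and 1 lower, where 35.5% of all genes did.

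With UNC0642 the few genes of this list that passed were lower. In Mel92.1, 4 of 24 genes fell and none rose, where 0.688% of all genes passed: DDIT4 (log2 -1.12 ± 0.15), CHAC1 (-1.96 ± 0.29), ASNS (-0.69 ± 0.11) and SESN2 (-0.61 ± 0.11), of which DDIT4 and SESN2 are known restraints on mTORC1. In MP41, 2 of 22 fell, CHAC1 (log2 -1.12 ± 0.097) and ASNS (-0.54 ± 0.072), where 0.241% of all genes passed. With A366 in Mel92.1, 3 of 24 fell, DDIT4 (log2 -1.57 ± 0.16), SESN2 (-0.75 ± 0.11) and CHAC1 (-1.95 ± 0.29), where 0.213% passed. In the test between the lines, 17 of 24 had a lower response to A366 in Mel92.1, led by ASNS (-1.64 ± 0.12) and CHAC1 (-3.92 ± 0.30), where 13.8% of all genes differed. Leaving the 4 libraries out left 1 A366 library in each line, so no count of that fit is given for this list. With A366 in Mel92.1, no gene of the whole table passed without the 4 libraries or as labelled, and the median log2 value of the list was -0.22 and 0.35 in these fits, against -0.23 here.

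In the other 4 lists no gene passed in Mel92.1 with either inhibitor or in MP41 with UNC0642. With A366 in MP41, 12 of 14 genes of cystine and glutathione passed, 8 higher and 4 lower (median log2 0.35), led by CTH (0.76 ± 0.13), which makes cysteine from cystathionine, and CBS (0.43 ± 0.079), the step before it. Of 33 genes of amino acid sensing by mTORC1, 17 passed, 11 higher and 6 lower (median 0.15), with FNIP1 lowest in adjusted p (log2 -0.71 ± 0.12), followed by LAMTOR1 (0.48 ± 0.083). Of 15 genes of glutamine and amino acid metabolism 6 passed, 4 higher and 2 lower (median 0.098), among them PYCR1 (0.63 ± 0.083), an enzyme of proline synthesis. Of 15 other amino acid transporters 7 passed, 5 higher and 2 lower (median -0.067), among them the mitochondrial carriers SLC25A38 (0.55 ± 0.097) and SLC25A39 (0.50 ± 0.090). The shares of the last 3 lists lay near the 46.0% of all genes. As labelled, 7, 14, 6 and 6 genes of these lists passed, where 32.8% of all genes did. For the fit without the 4 libraries that did not match their labels no counts are given for these lists. Under the correction for GC and length 6 of the cystine and glutathione list and 5 of the mTORC1 list passed, where 35.5% of all genes did.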

How the data were processed

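Per the labels, strand-specific libraries were made from total RNA of Mel92.1 and MP41 cells by oligo-dT selection, whereas the series text describes ribosomal depletion, so the ribosomal shares cannot be read as a measure of either step. The submitters' processing notes name Bowtie2 2.1.0, RSEM 1.2.15 and hg38, whereas the study's methods describe mm10, TopHat and FPKM values. The authors deposited expected counts per gene symbol, not normalized for depth, and these were rounded to whole numbers (5.85% to 13.4% of the values in a library were not whole). In each line the 9 libraries were fitted with edgeR 4.0.16 in R 4.3.3 (filterByExpr, TMM, glmQLFit, glmQLFTest), and all 18 for differences between lines, with Benjamini-Hochberg adjustment over all genes and a threshold of 0.05. The common biological coefficient of variation was 0.175 in Mel92.1 and 0.109 in MP41. CPM were scaled by TMM factors of all 18 libraries. Alternatives used DESeq2 1.42.0, limma 3.58.1 (voom), RLE factors, no filter, a replicate block, fewer libraries, other groupings, and a spline correction for transcript GC and length (GENCODE release 29, 24618 of 26475 symbols matched). Intervals at 95% used the t quantile of the fit. The scripts were tested on simulated data.

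The members and lists were chosen with earlier results of these data known. Named in full were SLC7A11, SLC3A2, every gene past the threshold in the first 3 inhibitor comparisons, and those with the largest change elsewhere (up to 10 for A366 in MP41, 8 between the lines, 5 for each interaction and each comparison of inhibitors). Of each list up to 4 genes with the lowest adjusted p were named. In some comparisons SLC7A5, SLC1A5, SLC38A1, SLC38A2, SLC7A1, SLC7A6, SLC7A8 and SLC1A1 were also given outside that rule, after their values were seen.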

Additional observations from a re-analysis of the deposited data

Results flagged for a closer look

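The response to A366 differed between the lines, by the interaction test of edgeR with Benjamini-Hochberg adjustment over 15799 genes, for 5 of 28 transporter genes, where 13.8% of all genes differed. The change in Mel92.1 minus the change in MP41, on the log2 scale, was -1.50 for SLC7A11 (adjusted p = 0.000849), -0.84 for SLC3A2 (0.000714), -0.76 for SLC1A5 (0.000267), -0.58 for SLC7A5 (0.000455) and -0.40 for SLC38A10 (0.0185). SLC7A11, SLC1A5 and SLC7A5 had every A366 library below every DMSO library in Mel92.1 and every A366 library above every DMSO library in MP41. They were picked by the interaction test on these same values, and the share of all genes split this way is not given. In Mel92.1 none of them passed with A366 by edgeR (adjusted p = 0.384, 0.827 and 0.0653). The correction for GC and length ended the calls of SLC3A2, SLC1A5, SLC7A5 and SLC38A10 (adjusted p = 0.195, 0.266, 0.187 and 0.717). As labelled, the value of SLC7A11 was 1.28 (adjusted p = 0.162) and that of SLC7A5 was 0.43 (0.217).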

How the results depend on the processing

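Results were recomputed under 9 settings and in 18 fits without 1 library, of which 9 could change a comparison within 1 line. For SLC1A2 between the lines 26 of the 27 gave a value. Counts of transporter genes past the threshold that moved by over 1.5 times are given here. DESeq2 called 1 in each comparison of an inhibitor with DMSO where edgeR called 0, namely both in Mel92.1 and that of UNC0642 in MP41, as well as 2 between the inhibitors in Mel92.1 and 1 for the line difference with UNC0642. In Mel92.1, limma voom called 2 (UNC0642), 8 (A366) and 2 (between the inhibitors). It also called 18 between the inhibitors in MP41 (11 in edgeR), where it called 61.2% of all genes, and 1 and 16 for the line differences with UNC0642 and A366 (0 and 5 in edgeR), where it called 1.54% and 58.7% of all genes. The correction for GC and length gave 1 (UNC0642) and 8 (A366, against 13) in MP41 and 3 for the A366 line difference. There it called 0.849%, 35.5% and 0.671% of all genes. As labelled, A366 in MP41 gave 7 and its line difference 17. Without the 4 libraries the count between the inhibitors in MP41 moved as given above. A fit of only the groups compared gave 9 for the A366 line difference, where 19.6% of all genes differed. Leaving out 1 library gave, in Mel92.1, 0 to 1 (UNC0642), 0 to 1 (A366) and 0 to 0 (between the inhibitors), and in MP41 0 to 0, 12 to 15 and 7 to 11. The line differences gave 0 to 0 (UNC0642) and 4 to 8 (A366), and the lines with DMSO 19 to 21. For the fits that left out 1 library the shares of all genes are not given. These counts therefore cannot show whether the transporter genes moved apart from all genes. The 1 call with either inhibitor in Mel92.1 came without Mel92.1 UNC0642 replicate 1, the 7 between the inhibitors in MP41 without MP41 A366 replicate 1, and the 8 for the line difference without Mel92.1 DMSO replicate 1 or without Mel92.1 UNC0642 replicate 1.

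Directions that reversed, as log2 values, were those of SLC3A2 with UNC0642, which was 0.040 in Mel92.1 and -0.043 in MP41 with the correction for GC and length, and in MP41 -0.026 without MP41 DMSO replicate 3 and -0.0035 without MP41 UNC0642 replicate 2, in a range of -0.026 to 0.044 over the fits that left out 1 library. That correction moved the median of all genes to 0.14 for UNC0642 in Mel92.1, and no SLC3A2 value here passed the threshold. As labelled, SLC7A11 was 1.05 with A366 in Mel92.1, -0.26 with A366 in MP41, -0.0014 for A366 against UNC0642 in MP41 and 1.28 for the line difference. Also as labelled, SLC7A4, SLC7A2 and SLC1A4 were -1.02, 1.60 and -1.01 with A366 in MP41, and the line differences of SLC7A5 and SLC38A10 were 0.43 and 0.038. As labelled, a group holds libraries of both lines. For the other settings the cause was not tested. Over all named genes and the alternatives that could change them, 659 values kept their direction and side of the threshold, 51 lost the threshold, 5 gained it and 13 reversed.

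For replicates that share a number, the correlations of their deviations ran from -0.195 to 0.225 in Mel92.1 (1 of 9 over 0.1) and from -0.0804 to 0.0800 in MP41 (0 of 9). With 3 libraries per group, these low values cannot settle whether the numbers pair the samples. The main fits used no pairing. With the replicate number as a block, 12 transporter genes passed for A366 in MP41 and 10 for A366 against UNC0642 in MP41. These compare with 42.0% and 39.7% of all genes. With that block 5 passed for the line difference with A366 and 19 between the lines, where 7.44% and 57.8% of all genes did. Of the 40 genes, 14 were under 1 CPM in every group, where few counts limit the size of change that could be detected.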
